A study of Mus musculus with 4 samples.

Results

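In sorted female germ cells of mouse embryos, 814 accessible regions at the boundaries of protein-coding genes had a called ATAC-seq peak in both Control libraries and in neither Snf5 CKO library. ATAC-seq marks open chromatin by where a transposase can insert sequencing adapters. The peaks of the 4 libraries on chromosomes 1 to 19 were merged wherever they overlapped by at least 1 bp, which gave 62815 regions. A region was placed at a gene boundary when it overlapped the 1 kb on either side of the start or the 3' end of a protein-coding gene in RefSeq. Of the merged regions 4897 (7.8%) were lost by this pattern, and 814 of the 14203 regions at gene boundaries (5.73%) were. The members were chosen by the presence and absence of called peaks in these same libraries, so the loss itself is not a finding, and their peak widths and folds are given as descriptions with no test.

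The cells came from female C57BL/6 embryos at embryonic day 15.5 and were sorted by the green fluorescence of an Oct4-EGFP reporter, which all 4 libraries share. There were 2 Control libraries and 2 libraries of the genotype Snf5 CKO, a conditional knockout of the gene for Snf5. The sources used here do not give the Cre driver, the allele or the embryos behind each library, so the spread between replicates may be technical. On chromosomes 1 to 19, Control 1 held 37933 peaks, Control 2 held 34979, Snf5 CKO 1 held 42761 and Snf5 CKO 2 held 26900. The Snf5 CKO 2 list was the shortest, and the read depth of each library is unknown, so a missing peak can also mean weak accessibility that escaped the caller. All 7 germ cell markers (Ddx4, Dazl, Dppa3, Pou5f1, Kit, Sycp3 and Mael) had a peak at a boundary in every library. Of the 5 stromal markers 3 had one in each Control library and in Snf5 CKO 1 and 1 had one in Snf5 CKO 2. Of the 5 supporting cell markers 4 had one in every library, of the 4 endothelial markers 2 in each control and 1 in each Snf5 CKO library, and of the 3 blood markers on these chromosomes 1 in every library. Of the listed genes with an open control region, 2 of 9 of stroma (Gli1 and Wnt5a), 2 of 5 of endothelium (Kdr and Sox17), 3 of 4 of blood and immune cells (Adgre5, Coro1a and Pik3ap1) and 0 of 11 of ovarian supporting cells had a lost region. The share over all 12989 genes with an open control region was 6.56%. Kdr, Sox17 and Gli1 still had a Snf5 CKO peak at a boundary, while Wnt5a, Adgre5, Coro1a and Pik3ap1 had none. The part of other cell types in the results was not tested.

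Snf5, encoded by Smarcb1, is a core subunit of SWI/SNF, a complex that uses ATP to slide or evict nucleosomes. By doing so it keeps enhancers and promoters open to transcription factors. At embryonic day 15.5 female germ cells are in meiotic prophase and are ending their primordial phase, in which DNA methylation is erased. Promoters rich in the dinucleotide CpG are usually open in most cell types, while promoters poor in CpG are more often open in a tissue-restricted way.

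Among the germ cell gene lists, germline genome defence had the highest share of genes with a lost region, and these promoters are shown first because each had its start site inside a lost region. These genes act against transposons, mostly through PIWI proteins and their small RNAs. Each sequence runs 5' to 3' along its gene, from 250 bases before the annotated start to 50 from it, and was taken from RefSeq on GRCm38.p6. The CpG dinucleotides are in capitals.
Piwil4, chr9:14740623-14740922, minus strand: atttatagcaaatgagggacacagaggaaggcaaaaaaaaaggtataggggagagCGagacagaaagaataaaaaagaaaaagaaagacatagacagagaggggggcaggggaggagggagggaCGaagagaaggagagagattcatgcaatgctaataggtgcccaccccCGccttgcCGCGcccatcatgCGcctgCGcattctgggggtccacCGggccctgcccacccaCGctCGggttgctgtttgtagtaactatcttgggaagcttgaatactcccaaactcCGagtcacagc
Tex19.2, chr11:121118628-121118927, minus strand: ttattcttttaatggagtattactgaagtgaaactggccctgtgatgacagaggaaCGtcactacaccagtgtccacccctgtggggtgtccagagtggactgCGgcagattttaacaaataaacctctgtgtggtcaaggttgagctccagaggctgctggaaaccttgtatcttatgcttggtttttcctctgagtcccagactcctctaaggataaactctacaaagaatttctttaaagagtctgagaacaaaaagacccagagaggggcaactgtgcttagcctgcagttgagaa
Gtsf1, chr15:103430378-103430677, minus strand: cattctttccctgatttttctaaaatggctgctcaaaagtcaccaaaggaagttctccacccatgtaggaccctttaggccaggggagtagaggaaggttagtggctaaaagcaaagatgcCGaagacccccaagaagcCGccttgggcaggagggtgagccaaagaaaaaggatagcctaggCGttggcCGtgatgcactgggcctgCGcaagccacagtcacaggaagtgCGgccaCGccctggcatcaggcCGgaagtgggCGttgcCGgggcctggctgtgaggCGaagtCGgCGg
Tdrd1, chr19:56825959-56826258, plus strand: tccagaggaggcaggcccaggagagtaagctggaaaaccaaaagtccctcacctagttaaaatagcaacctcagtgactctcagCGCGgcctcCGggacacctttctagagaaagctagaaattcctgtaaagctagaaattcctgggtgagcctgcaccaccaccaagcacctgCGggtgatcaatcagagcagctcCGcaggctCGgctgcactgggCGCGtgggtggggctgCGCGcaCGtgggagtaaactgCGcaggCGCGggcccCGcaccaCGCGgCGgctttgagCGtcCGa
Tdrd9, chr12:111971309-111971608, plus strand: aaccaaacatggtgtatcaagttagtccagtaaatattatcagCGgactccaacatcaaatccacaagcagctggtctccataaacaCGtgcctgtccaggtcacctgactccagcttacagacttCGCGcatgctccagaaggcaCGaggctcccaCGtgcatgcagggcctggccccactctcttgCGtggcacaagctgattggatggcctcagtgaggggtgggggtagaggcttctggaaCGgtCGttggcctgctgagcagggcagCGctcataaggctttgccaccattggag
For comparison, the following promoters of the same list lay in regions kept in all 4 libraries and had the highest folds in the weaker control among its kept members.
Tdrkh, chr3:94412994-94413293, plus strand: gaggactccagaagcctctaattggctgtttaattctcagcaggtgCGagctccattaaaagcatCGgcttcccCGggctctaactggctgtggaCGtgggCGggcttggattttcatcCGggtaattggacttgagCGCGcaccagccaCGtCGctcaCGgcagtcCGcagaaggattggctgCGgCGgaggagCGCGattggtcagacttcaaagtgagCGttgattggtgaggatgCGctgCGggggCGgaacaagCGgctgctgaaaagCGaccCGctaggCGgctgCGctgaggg
Mael, chr1:166238695-166238994, minus strand: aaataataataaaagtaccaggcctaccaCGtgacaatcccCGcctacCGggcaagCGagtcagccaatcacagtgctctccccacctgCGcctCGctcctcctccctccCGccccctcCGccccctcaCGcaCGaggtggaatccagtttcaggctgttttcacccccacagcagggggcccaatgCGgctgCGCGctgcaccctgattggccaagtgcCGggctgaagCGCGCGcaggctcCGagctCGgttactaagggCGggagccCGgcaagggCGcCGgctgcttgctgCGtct
The last one is the promoter of Iqca, the lost region with the highest fold in the weaker control.
Iqca, chr1:90153387-90153686, minus strand: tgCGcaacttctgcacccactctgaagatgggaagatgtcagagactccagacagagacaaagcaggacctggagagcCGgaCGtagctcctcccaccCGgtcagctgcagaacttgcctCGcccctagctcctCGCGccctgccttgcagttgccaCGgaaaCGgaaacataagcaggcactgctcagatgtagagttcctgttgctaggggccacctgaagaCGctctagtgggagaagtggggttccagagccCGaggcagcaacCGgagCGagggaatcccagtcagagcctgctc
The 5 lost promoters of the list held 2 CpG in Tex19.2, 10 in Tdrd9, 11 in Piwil4, 13 in Gtsf1 and 20 in Tdrd1. The kept promoters of Tdrkh and Mael held 25 and 24, and that of Iqca held 13. Tdrkh and Mael were chosen for high folds and do not stand for the other kept promoters of the list, whose CpG counts are not given.

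Of the 17 germline genome defence genes with a region open in both controls at a boundary, 5 (29.4%, exact 95% binomial interval 10.3 to 56.0%) had a lost region. The share over all 12989 such genes was 852, or 6.56%. This list was chosen with earlier results of these data known, and the losses at Gtsf1, Tdrd1 and Tdrd9 were among those results, so the count describes the list and does not test it. All 5 genes were left without a Snf5 CKO peak at either boundary.
Tex19.2, a testis-expressed germline gene, had a fold enrichment of 4.72 in Control 1 and 4.35 in Control 2 over 1075 and 758 bp (chr11:121117694-121118768), the highest pair on the list.
Piwil4, which encodes the nuclear PIWI protein that guides DNA methylation to transposons, had 4.04 and 3.40 over 456 and 737 bp (chr9:14740109-14740845).
Gtsf1, which encodes a partner of PIWI proteins, had 4.92 and 3.04 over 383 and 261 bp (chr15:103430143-103430601), so its controls differed the most.
Tdrd1 and Tdrd9 encode Tudor-domain proteins of the same pathway. Tdrd1 had 3.11 and 2.99 over 556 and 485 bp (chr19:56826048-56826603). Tdrd9 had 2.29 and 2.56 over 424 and 344 bp (chr12:111971405-111971833), the weakest of the 5, and is named here after its values were seen. When only peaks with −log10 q of 3 or more counted, the list had 2 lost members, and with peak lists of equal length it had 3.

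Among other germ cell lists, that of meiosis had 1 of 43 genes with a lost region (2.33%), Rarg, a retinoic acid receptor gene. The primordial germ cell and pluripotency list had 2 of 16 (12.5%). At Lefty2, which encodes an inhibitor of Nodal signalling, no Snf5 CKO peak was left. At Pou5f1, the gene of the factor also known as Oct4, a lost region at the start had folds of 2.21 and 2.02 (chr17:35505774-35506551), lay 304 bp from a Snf5 CKO peak, and the gene kept a Snf5 CKO peak at a boundary. The oocyte list had 1 of 11, Ooep, a maternal-effect gene, with folds of 3.35 and 4.34. These counts depend on which genes were listed. Topaz1 and Dnd1, for example, also had a lost region and were on none of these lists.

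A region at Smarcb1 itself was among the lost regions. It was chosen by the same rule as the others and the deleted part of the gene is not known here, so it does not check the genotype labels. Its region at the start (chr10:75920997-75922135) covered 729 bp in Control 1 and 1139 bp in Control 2. The other lost member among 28 SWI/SNF subunit genes was a region at Arid2, which lay 185 bp from a Snf5 CKO peak. Arid2 kept a Snf5 CKO peak at a boundary and Smarcb1 did not. The share of these subunit genes with a lost region, 7.14%, was near the 6.56% over all genes open in both controls.

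Loss was less frequent at gene boundaries than away from them among regions open in both controls. At boundaries 814 of 12118 (6.72%) were lost and 10529 (86.9%) were kept in all 4 libraries, while 4083 of 14462 regions elsewhere (28.2%) were lost. Control width and strength were not matched between these groups, and their part in the difference was not tested. Among boundary regions absent from both controls, 126 of 722 (17.5%) were gained. A further 638 boundary regions open in both controls lacked a peak only in Snf5 CKO 2, the library with the shortest list, and 137 only in Snf5 CKO 1.

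The lost regions were narrow and weak in the controls. Their merged width had a median of 671 bp, against 1205 bp for kept boundary regions. A kept region joins peaks of all 4 libraries and a lost one those of the 2 controls, so the merged widths are not like measures. In Control 1 the bases under the peaks of lost regions ran from 200 through a median of 586 to 2091 bp, and in Control 2 from 200 through 465.5 to 1826 bp. Kept regions at boundaries had medians of 1111 and 1090 bp. The authors' fold enrichment over the local background ran from 1.69 through a median of 3.39 to 6.07 in Control 1 and from 1.66 through 3.36 to 6.28 in Control 2, against medians of 4.73 and 4.66 for kept regions. Regions that lacked a peak only in Snf5 CKO 2 lay between, with median widths of 663 and 634 bp and median folds of 3.67 and 3.79. In the peak list of each control, the fold of the lost regions sat at a median percentile of 31.4 in Control 1 and 26.3 in Control 2. The 2 controls ordered the lost regions alike: across the 814 regions Spearman's rho was 0.711 for fold and 0.564 for covered bases, as a description, since regions share the libraries. Fold was higher in Control 1 at 414 regions (50.9%), and covered bases were higher there at 514 (63.1%). In 786 regions each control had a single peak.

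**Figure D1:**
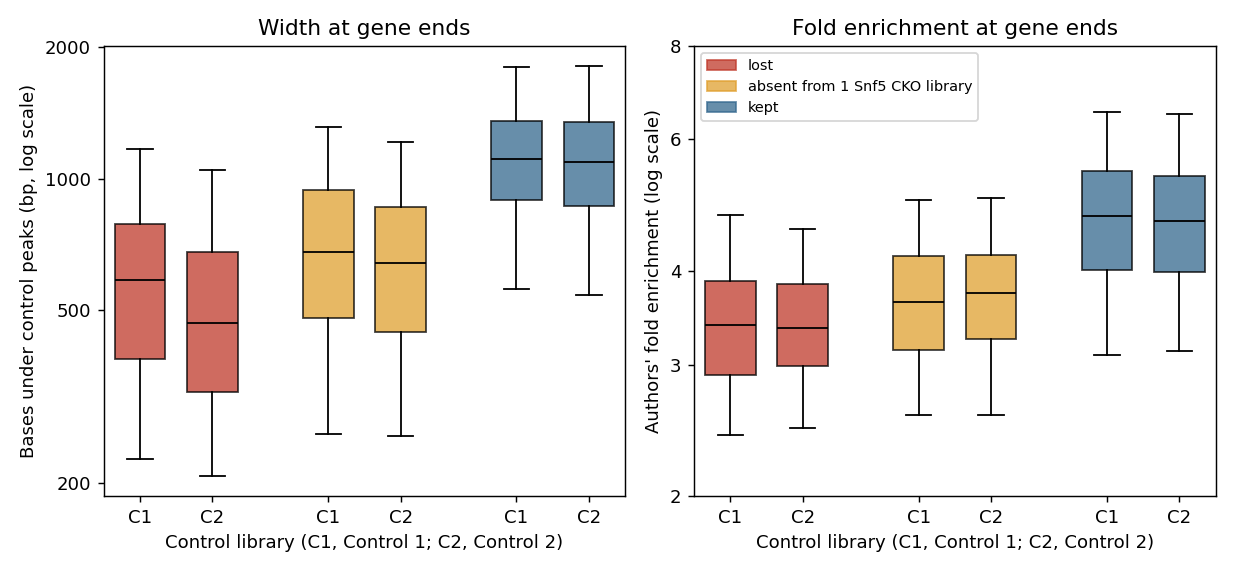
Bases under the peaks (left, bp) and the authors' fold enrichment (right), both on log axes, of regions at gene boundaries in Control 1 and Control 2. Boxes span the quartiles with the median as a line, and whiskers run from the 5th to the 95th percentile. The lost regions have median widths of 586 and 465.5 bp and lie below the kept regions at 1111 and 1090 bp, with wide overlap.

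Loss tracked the smaller of the control widths. Of boundary regions under 500 bp in the narrower control 498 of 1367 (36.4%) were lost, of those from 500 to 1000 bp 291 of 4975 (5.85%), from 1000 to 1500 bp 23 of 4525 (0.508%), and from 1500 to 2000 bp 2 of 1079 (0.185%). None of the 172 wider regions was lost. By significance, 56.5% of regions with a −log10 q of 1 to 2 in the weaker control were lost, 37.5% of those from 2 to 3, 13.9% from 3 to 5 and 1.01% from 5 to 10. At 10 or more, 1 of 5086 was lost. These measures are tied to the rule, because a weak peak is more easily missed, and their part in the loss was not tested.

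The strongest lost regions were ranked by the fold in the weaker control. Iqca led with 5.67 in Control 1 and 6.28 in Control 2, over only 309 and 276 bp.
Ccdc43 (chr11:102697387-102698171) had folds of 5.14 and 5.44 over 764 and 760 bp, and the nearest Snf5 CKO peak was 22285 bp away.
Zfp287, a zinc finger gene (chr11:62731443-62732116), had 5.75 and 5.10 over 539 and 674 bp, with the nearest Snf5 CKO peak 24453 bp away.
In both the controls were of similar height and the surroundings also lacked a Snf5 CKO peak. Pik3ap1, the gene of a signalling adaptor of immune cells (chr19:41384421-41385496), had 4.90 and 4.86 over 864 and 1040 bp. Its nearest Snf5 CKO peak was 86610 bp away. Tgfbi, the gene of an extracellular matrix protein (chr13:56609166-56609808), had 5.08 and 4.94 over 586 and 518 bp, and Gjb6, a gap junction gene, had 4.86 and 5.06. Chil1, Ccdc152 and Gm7102 completed the leading 10. Adgre5, the gene of an adhesion receptor of leukocytes (chr8:83740966-83741774), had 5.13 and 5.12 over 777 and 798 bp.

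The regions that covered the most bases in the narrower control were not those with the highest folds.
At Prdm16, a transcription factor gene (chr4:154635023-154637202), the peaks covered 2091 and 1826 bp with folds of only 2.22 and 2.53. The nearest kept region was 218202 bp away.
At Col9a2, a cartilage collagen gene (chr4:121039462-121041500), they covered 1954 and 1578 bp with folds of 3.04 and 3.10. Oxct2b, the gene of a germ cell enzyme of ketone body use with a close copy in the genome, had 1315 and 1351 bp. Igf2bp1, the gene of an RNA-binding protein, had 1664 and 1243 bp, and Nlrp12, an innate immune gene, had 1455 and 1220 bp. The last 2 lay 225 and 273 bp from a kept region and so bordered chromatin that stayed open.

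Lost regions sat at 3' ends more often than kept ones did. The strand of the gene, which separates starts from 3' ends, was known from the RefSeq promoter table for 16456 of 20661 genes, and 611 of the 814 lost regions touched such a gene. Of these, 450 (73.6%, exact 95% binomial interval 70.0 to 77.1%) were within 1 kb of a start, and 161 (26.4%) were near a 3' end only. Of 8613 kept boundary regions 8307 (96.4%, interval 96.0 to 96.8%) were near a start and 306 (3.55%) near a 3' end only. Among regions open in both controls, 161 of 565 near a 3' end only (28.5%) and 450 of 9240 near a start (4.87%) were lost. The share at 3' ends was close to the 28.2% lost away from boundaries, so it is not particular to 3' ends. All such intervals cover counting error over regions alone, and regions of 1 library are not replicates.

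In each band of control width given here, a larger share was lost near a 3' end only than near a start. Fold and −log10 q were not matched, and their part in the difference was not tested. Of the regions under 500 bp in the narrower control, 32.5% of 813 near a start and 45.0% of 249 near a 3' end only were lost. From 500 to 750 bp the shares were 8.45% of 1337 and 24.3% of 144, and the exact 95% intervals, 7.02 to 10.1% and 17.6 to 32.1%, did not overlap. From 750 to 1000 bp 55 of 2449 and 12 of 76 (15.8%) were lost. From 1000 to 1500 bp they were 0.440% of 3634 and 2.56% of 78, with overlapping intervals. No test across libraries is given, since with 2 libraries against 2 the smallest two-sided exact permutation p is 0.333.

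**Figure D2:**
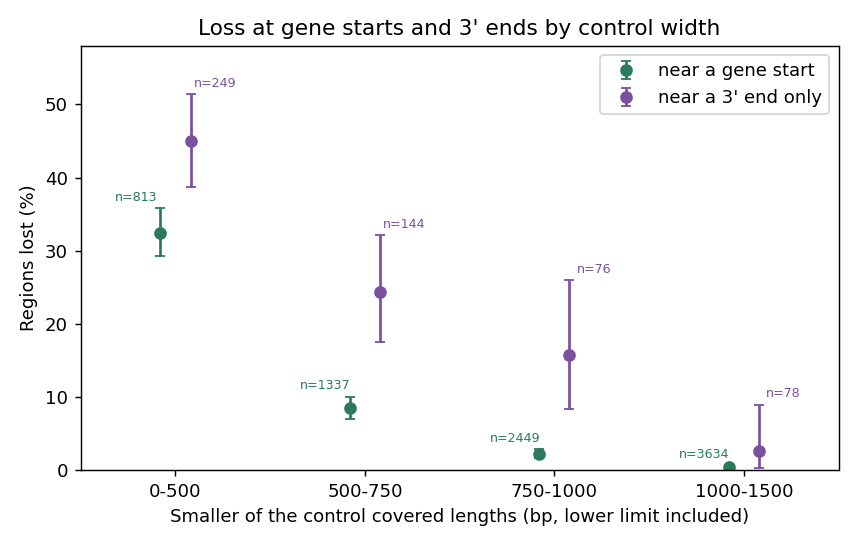
Share of boundary regions open in both controls that were lost (y axis, %) by the smaller control width (x axis, bp), for regions near a gene start and near a 3' end only. Points are shares, bars are exact 95% binomial intervals over regions, and n is the number of regions. The share falls with width for both, from 32.5% to 0.440% at starts and from 45.0% to 2.56% at 3' ends.

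The strongest lost regions near a 3' end only were at Chil1, As3mt, Sectm1b, Chst13, Lactb and Foxn1, a choice made after their values were seen.
Chil1, the gene of a secreted chitinase-like protein (chr1:134188705-134189519), had folds of 5.02 and 5.01 over 815 and 541 bp, 512 bp from its 3' end. As3mt, an arsenic methyltransferase gene (chr19:46740499-46740955), had 4.78 and 4.98 over 457 and 240 bp, and kept a Snf5 CKO peak at a boundary. Chil1 kept none.

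Genes with a lost region were also described by which end lost it and by what remained open. Of 852 genes with a lost region, 560 (65.7%) had no Snf5 CKO peak left at either boundary, which is 4.31% of all 12989 genes open in both controls, and 292 (34.3%) still had one. The remaining peak was at the same boundary in 103 of these and at the other boundary alone in 189. Of the 426 genes of known strand that lost a region at the start only, 327 (76.8%) had no Snf5 CKO peak left and 57 (13.4%) still had one near the start. Of the 173 that lost a region at the 3' end only, 109 (63.0%) kept a Snf5 CKO peak at the start and 55 (31.8%) had none left. A lost region lacks a Snf5 CKO peak by the rule, and 96.4% of kept boundary regions of known strand were near a start. The contrast between these groups is thus partly built in, and the same shares over all genes were not computed. Of the 814 regions 758 touched 1 gene, 55 touched 2 and 1 touched more. There were 19 genes with more than 1 lost region.

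Near starts, lost regions lay beside the start site more often than kept ones, mostly on the gene's side. Of 409 lost regions near a start of the promoter table, 282 (68.9%, interval 64.2 to 73.4%) contained an annotated start site, 38 (9.29%) lay upstream and 89 (21.8%) lay downstream. Of 8123 kept regions, 7860 (96.8%) contained one, 123 lay upstream and 140 downstream. The median distance from the start to the region's centre was 130.5 bp into the gene for lost regions and 86.5 bp for kept ones, with the middle 50% of lost regions from −28.5 to 346.5 bp and of kept regions from −24.5 to 205.75 bp. A narrow region contains a start site less often than a wide one placed alike, and the part of width in this share was not tested.

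**Figure D3:**
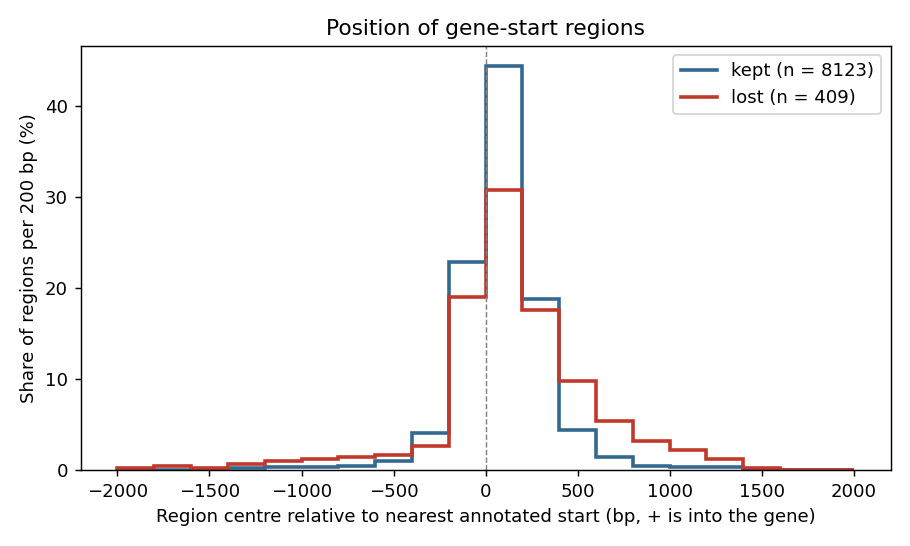
Position of the centre of 409 lost and 8123 kept regions relative to the nearest annotated start (x axis, bp, positive into the gene), as the share of regions in each 200 bp (y axis, %). Both peak just inside the gene, and the lost regions have a longer tail downstream, where 21.8% of them lie wholly past the start.

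Promoters inside lost regions had fewer CpG than those inside kept ones, and more than closed promoters. Over 300 bases around each start, the 396 start sites inside lost regions held a median of 14 CpG (range 1 to 46), the 10880 inside kept regions 23, and the 7814 in no region 3. The median G+C content was 59.7%, 63.3% and 47.3%, and the ratio of observed to expected CpG was 0.548, 0.807 and 0.188. Start sites in regions absent from 1 Snf5 CKO library resembled the lost ones, with a median of 15 CpG. Each start site was counted singly, while 282 lost boundary regions contained one, so a region or gene can count more than once. The intervals over start sites, here and below, treat them as independent. Of 11773 start sites open in both controls 3.36% were lost. The share was 21.9% of 32 promoters with 0 to 2 CpG (interval 9.28 to 40.0%), 9.73% of 226 with 3 to 5, 10.4% of 906 with 6 to 10, 6.22% of 1625 with 11 to 15, 3.53% of 2123 with 16 to 20, 1.87% of 3961 with 21 to 30, and 0.793% of 2900 with more (interval 0.503 to 1.19%).

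Control width moved with CpG. The median width in the narrower control rose from 644.5 bp at 0 to 2 CpG to 1252 bp at more than 30. Among start sites in regions under 500 bp the share lost was 29.9% with 5 CpG or fewer, 27.6% with 6 to 15 and 27.6% with more than 15, and these intervals overlapped. From 500 to 750 bp the shares were 5.26% of 76, 9.90% of 586 and 5.03% of 895, with the middle class highest. From 750 to 1000 bp the shares were 7.69% of 65, 3.23% of 742 and 1.22% of 2220, and the last 2 intervals, 2.08 to 4.77% and 0.803 to 1.76%, did not overlap. From 1000 to 1500 bp 0 of 43, 4 of 658 (0.608%) and 12 of 4248 (0.282%) were lost. The order of the CpG classes thus differed between widths.

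Short motifs were counted in the same 300 bases on both strands, as letter matches and not as sites. No motif searched contains another. ETS (CCGGAAGT) was in 2.27% of start sites in lost regions (interval 1.04 to 4.27%), 9.15% of those in kept regions and 5.28% of all 20062 starts. NRF1 was in 0.758%, 2.37% and 1.34%, CRE (TGACGTCA) in 1.26%, 3.58% and 2.30%, and CCAAT in 28.0%, 38.8% and 38.1%. The GC box (GGGCGG) was in 58.3%, 71.4% and 47.0%. AP-1 (TGA and TCA with any base between) went the other way, in 7.32% of lost (interval 4.96 to 10.3%), 3.44% of kept and 7.06% of all starts. For STRA8 (CNCCTCAG) the shares were 8.33%, 9.55% and 8.57%, and for the E-box (CACGTG), bound by helix-loop-helix factors, they were 9.09%, 10.8% and 7.89%. The octamer (ATGCAAAT), the letters read by Oct4 and its relatives, was found in 1.52%, 1.33% and 1.67%. The GATA letters (AGATAA) were present in 4.55%, 4.60% and 9.58%, so lost and kept starts were alike in them and lower than all starts. For the SOX letters (ACAATG) the values were 7.32%, 6.01% and 10.4%. CTCF was in none of the 396, for which 3 counts of the total are 0.758% and the exact 95% interval reaches 0.927%, against 0.469% of kept and 0.344% of all starts. Base composition differs between these groups, and its part in the motif shares was not tested.

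Keratin, olfactory receptor, Hox and some other gene families had high shares of genes with a lost region, and ribosomal protein and histone genes had none. The following counts are out of genes with a region open in both controls, for which the share over all genes was 6.56%. Keratin genes, which encode filaments of epithelia, had 8 of 13 (61.5%), and olfactory receptor genes 7 of 9 (77.8%). Only these 9 of 1104 olfactory receptor genes had a region open in both controls at a boundary. Vomeronasal receptor genes had 1 of 6, claudin and cadherin genes 3 of 21 and gap junction genes 1 of 9. The exact 95% intervals of these other families all held 6.56%. Hox genes, the patterning factors of the body axis, had 9 of 21 (42.9%), with Hoxa5 and Hoxa6 sharing a region. Cytochrome P450 genes, mostly enzymes of steroid, vitamin and drug metabolism, had 6 of 23 (26.1%), genes of Wnt ligands and Frizzled receptors 7 of 28 (25%), all 7 of them ligands, and solute carrier genes 34 of 253 (13.4%). Zinc finger genes named Zfp and the like had 8 of 347 (2.31%). No member was found among 87 ribosomal protein genes, for which 3 counts of the total are 3.45% and the exact 95% interval reaches 4.15%. None was found among 67 histone genes either, with 4.48% by 3 counts and an exact interval up to 5.36%. The high counts fell under stricter peak lists. When only peaks with −log10 q of 3 or more counted, lost olfactory receptor genes fell from 7 to 1, keratin genes from 8 to 3, cytochrome P450 genes from 6 to 2 and Wnt and Frizzled genes from 7 to 2, while Hox genes numbered 7 and zinc finger genes 18. With peak lists of equal length the first 4 numbered 2, 4, 2 and 5. With the limit on control peaks alone, Hox genes numbered 5 and solute carrier genes 14. Leaving out a library also moved some counts: keratin genes numbered 14 without Control 2, and zinc finger genes 17 with Control 1 dropped, 19 with Control 2 dropped and 20 with Snf5 CKO 1 dropped. In the same order ribosomal protein genes numbered 2, 1 and 1, and histone genes 1 without Control 2. Reads of close copies in the keratin, olfactory receptor and histone families could be split between genes.

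**Figure D4:**
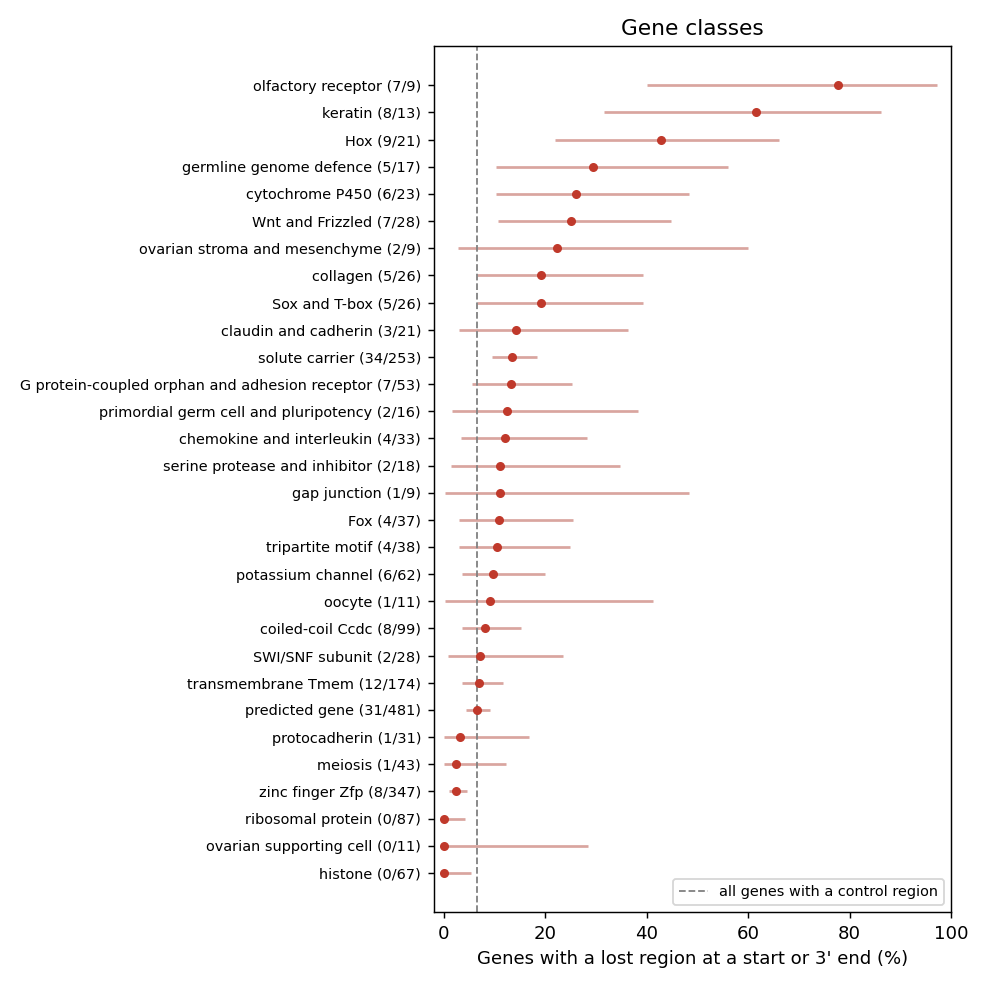
Share of genes with a lost region at a start or 3' end (x axis, %) among genes with a region open in both controls, for each class with at least 9 such genes, with both counts beside its name. Points are shares, bars exact 95% binomial intervals over genes, and the dashed line is the 6.56% of all genes. Olfactory receptor, keratin and Hox genes are highest, and ribosomal protein, histone and ovarian supporting cell genes have none.

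Classes also differed in control width. Where the widest control-open region of a gene was under 750 bp in the narrower control, 594 of 2879 genes (20.6%) had a lost region. Within this band it was 7 of 14 Hox genes (50.0%), 7 of 10 Wnt and Frizzled genes (70.0%), 6 of 10 keratin genes (60.0%), 5 of 9 cytochrome P450 genes (55.6%), 4 of 4 germline genome defence genes and 27 of 72 solute carrier genes (37.5%). It was 0 of 12 ribosomal protein genes, 0 of 13 histone genes and 4 of 112 zinc finger genes (3.57%). The protocadherin genes, cell adhesion genes of which many but not all are arrayed in clusters, had a median control width of 276 bp. Of these genes 1 of 28 in this band (3.57%), Pcdh7 on chromosome 5, had a lost region. A region at a boundary shared by several genes counts for each of them.

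In the keratin genes the strongest lost region was at the start of Krt7, a keratin of simple epithelia (chr15:101411728-101413065), with folds of 4.60 and 4.32 over 1338 and 1001 bp. Krt28 had 4.44 and 4.07 near its 3' end and Krt87 had 4.07 and 4.09. Among Wnt genes, Wnt3a (chr11:59290595-59291160) had 3.80 and 3.84, Wnt8a had 3.47 and 3.05, Wnt11 had 3.12 and 2.96 and Wnt5a had 2.90 and 2.98. Of the cytochrome P450 genes, Cyp21a1, which acts in adrenal steroid synthesis, had 3.78 and 4.36, and Cyp27a1, an enzyme of bile acid synthesis, had 3.82 and 3.28. Cyp26c1, which degrades retinoic acid, had 3.07 and 2.92 near its 3' end. Among solute carriers Slc23a4 (chr6:34987790-34988522) had 4.89 and 4.66, and Slc1a3, a glutamate transporter gene, had 4.23 and 4.46.

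Most lost regions stood alone. When members within 100 kb of the next were joined, 610 of the 814 (74.9%) had no other within that distance, 136 were in pairs, 42 in groups of 3, 16 in groups of 4 and 10 in groups of 5. The median gap to the next lost boundary region was 396777 bp. Among boundary regions open in both controls, in order along a chromosome, the one after a lost region was also lost in 88 of 812 cases (10.8%) and the one after any other region in 725 of 11287 (6.42%). Among pairs within 100 kb the shares were 11.6% and 7.08%.
The Hoxc cluster on chromosome 15 held 1 of the largest groups, with lost regions at Hoxc13, Hoxc11, Hoxc9, Hoxc8 and Hoxc6 from 102926983 to 102999502. Hoxc13 had folds of 2.85 and 3.39 and Hoxc8 had 3.08 and 2.81. The strand of these genes was not in the promoter table. Hoxb13 on chromosome 11 had the strongest lost Hox region, with 3.34 and 3.18. The other group of 5, on chromosome 7, was at Nccrp1, Acp7, Fbxo17, an F-box gene, and Ccer2, which had 2 of them 136 bp apart. A group of 4 on chromosome 11 was at Cacna1g, a calcium channel gene, Spata20, Epn3 and Chad, a cartilage matrix gene.

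Chromosome 11 had the highest share of lost boundary regions, 105 of 996 (10.5%, interval 8.70 to 12.6%), followed by chromosome 15 with 49 of 510 (9.61%). Chromosome 12 had the lowest, 19 of 462 (4.11%, interval 2.49 to 6.35%). Without regions at Hox and keratin genes the share was 10.1% on chromosome 11 and 7.74% on chromosome 15.

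Lost boundary regions more often had a kept region nearby than other lost regions did, with all called peaks used. Of the 814, 161 (19.8%) had a kept region within 5 kb, and 68 (8.35%) within 1 kb. The shares within 5 kb were 9.67% of 2390 lost regions inside genes and 8.09% of 1693 between genes. The boundary share was 7.84% when only peaks with −log10 q of 3 or more counted and 9.63% with peak lists of equal length, and the other shares were not recomputed under these settings. Kept regions are themselves concentrated at gene boundaries, and the part of this in the difference was not tested. The nearest Snf5 CKO peak of any kind was within 1 kb of 102 members (12.5%) and within 200 bp of 27.

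At the limits of the rule the values were similar on both sides. The 3 members farthest from a boundary were at Ecm1 at 997 bp, with folds of 2.86 and 3.17, at Cep164 at 993 bp, with 3.35 and 3.06, and at Hoxc6 at 980 bp, with 2.70 and 2.70. Just outside, lost regions at Rps6ka4 at 1001 bp and Sh2d6 at 1005 bp had 3.05 and 3.19 and 3.06 and 3.56. Boundary regions that missed the rule through a single weak Snf5 CKO 1 peak included Fbp1, with control folds of 3.91 and 4.58 and a Snf5 CKO 1 peak of 346 bp, fold 2.86 and −log10 q 1.05.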

How the data were processed

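ATAC-seq peaks of 4 libraries, 2 Control and 2 Snf5 CKO, were analysed. The authors deposited broad peaks called in each library separately. Per the submitters' processing notes the build was mm10 and the tools were MACS2 2.2.7.1, Picard 2.25.2, SAMtools 1.10, Bowtie2 2.4.2 and Trim Galore 0.6.5. The sources used here do not give thresholds, duplicate handling or any shift of read ends. Each deposited peak has a score (10 times the −log10 q), a fold enrichment, a −log10 p and a −log10 q from the authors' caller. Fold and −log10 q were used only to describe or filter peaks within a list. No counts were used, so depth is unknown.

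Regions were merged and placed against the RefSeq genes of GRCm38.p6 (mm10) with Python 3.11.15 and pandas 2.3.3. Starts, strand and promoter sequences came from the RefSeq promoter table of that build, which held 16456 of 20661 protein-coding genes. A promoter belonged to a region when its start site lay inside it. Covered bases are the summed peak lengths of a library in a region. Shares have exact Clopper-Pearson 95% intervals (scipy 1.17.1). Merging and placement were tested on simulated peaks. Regions named are the 10 strongest in the weaker control, the 5 with the most covered bases in the narrower control, the 3 densest groups, up to 4 of each of 33 gene classes, and those next to the 1 kb limit. The members, classes and lists were chosen with earlier results of these data known. In 11 alternatives the peak threshold, list length, overlap, gap, window or 1 library was changed.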

Additional observations from a re-analysis of the deposited data

How the results depend on the processing

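No paired analysis was possible because the results come from peak presence and not from a test, so a replicate number cannot enter as a block. The number of lost boundary regions was 814, and lay between 638 and 1105 with another window, overlap, gap, list length or −log10 q limit of 3 on all peaks. It was 283 when that limit applied to control peaks alone. Leaving out 1 library, which loosens the rule, gave 950 to 1480. Dropping Control 1 gave 1242, dropping Control 2 gave 1480 and dropping Snf5 CKO 1 gave 1452. Genes left with no Snf5 CKO peak numbered 560, 232 with the limit on control peaks alone, and 651 to 1133 without 1 library, the former without Snf5 CKO 2, the latter without Snf5 CKO 1, and 866 without Control 2.

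The median width of 671 bp became 896.5 bp with the limit on all peaks, 778 bp with it on control peaks alone, 815 bp with lists of the same length, and 380 to 719.5 bp without 1 library (380 without Control 1, 432 without Control 2). The share near a start, 73.6%, became 86.1%, 81.6% and 80.7% in the first 3 of these settings, 79.9% with windows of 500 bp, 67.0% with windows of 2 kb, and 67.2% to 78.1% without 1 library. The share within 5 kb of a kept region, 19.8%, became 7.84%, 13.8% and 9.63% in the same first 3 settings, 16.9% with windows of 500 bp, and 16.7% to 26.2% without 1 library. The cause of these shifts was not tested.

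Of the gene classes, lost Hox genes numbered 5 to 13 over the alternatives, keratin genes 3 to 14, olfactory receptor genes 1 to 10, Wnt and Frizzled genes 2 to 10, cytochrome P450 genes 1 to 8, solute carrier genes 14 to 48, germline genome defence genes 2 to 6, zinc finger genes 3 to 20, meiotic genes 0 to 3, ribosomal protein genes 0 to 2 and histone genes 0 to 1. Germline genome defence had 5 whichever library was left out. Leaving out a library loosens the rule, so this count does not show stability. The unknown depth limits what can be said of narrow, weak peaks.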

Other observations

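Other classes of developmental and signalling genes had lost regions in smaller numbers. The Sox and T-box genes had 5 of 26, among them Sox10, a neural crest gene, with folds of 2.95 and 3.30, and Sox9, a gene of cartilage and testis, with 2.52 and 2.77. Collagen genes also had 5 of 26, with Col16a1 at 3.88 and 4.37 and Col24a1 at 3.60 and 4.88. Forkhead genes had 4 of 37 (10.8%), the highest being Foxn1, a thymus and skin gene, at 4.65 and 4.42. Their exact 95% intervals, 6.55 to 39.4% for the first 2 and 3.03 to 25.4% for the forkhead genes, reach from below or near the 6.56% of all genes. Tripartite motif genes had 4 of 38 (10.5%), and the neighbours Trim15 and Trim10 on chromosome 17 were both among them. Potassium channel genes had 6 of 62 (9.68%), and Kcnc2 had a lost region at its start and at its 3' end. The exact 95% intervals of the tripartite motif and potassium channel genes, 2.94 to 24.8% and 3.63 to 19.9%, both held the 6.56% of all genes.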
